A study of Mus musculus with 9 samples.

Results

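The comparison described here is between mice given dichloroacetyl chloride (DCAC) and mice given dichloroacetic anhydride (DCAA), and it takes the 6 arrays of those groups, 3 each, out of 9 in the series. DCAC is an acyl chloride and DCAA is the anhydride of dichloroacetic acid; both transfer a dichloroacetyl group to nucleophiles, with chloride as the leaving group of the first and dichloroacetate as that of the second. The animals were female MRL +/+ mice, aged 11 weeks, a strain in which autoimmune disease develops late in life. Each mouse received 0.2 mmol/kg of its compound in 100 µl of corn oil by repeated intraperitoneal injection over 6 weeks, and the liver was taken 24 h after the last dose. The dose was matched per mole of compound and not per mole of dichloroacetyl group, of which the anhydride carries a pair. The 3 remaining mice are controls, called untreated in the labels and given corn oil according to the design text. No control enters the comparison, which asks where the livers under one compound differed from the livers under the other. Livers of separate mice were measured on 1 array each. The p-values therefore measure the spread between arrays, in which the spread between mice is not separated from that of the measurement.

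Acylating compounds of this kind are reactive intermediates and products in the metabolism of chlorinated solvents such as trichloroethene, and they form adducts on proteins. Hydrolysis of either compound gives dichloroacetic acid, which inhibits pyruvate dehydrogenase kinases and is broken down in the liver by the glutathione transferase GSTZ1. Hepatocytes answer irritation, feeding and hormones with transcripts of quite different speed: immediate early genes are induced within minutes by kinase signalling and shut down again by their own products, acute phase genes follow cytokines over hours, and genes of bile acid, lipid and clock control move with feeding and the time of day.

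Probe sets were compared on the log2 scale, on which a difference of 1 is a 2-fold change in signal. Of 45037 probe sets, 23175 were above the array median on at least 3 of the 6 arrays and were tested; they stand for 11851 genes. The median probe set had a 95% interval of 1.48-fold on each side, which sets the size of difference that 3 mice a group can show. The array labelled control 2 went against its tissue: its signal for Alb, serum albumin, was 1678, against 43741 to 65450 on the other 8 arrays, so control levels below are those of controls 1 and 3. The control probe sets for pyruvate carboxylase give a 3'/5' signal ratio for each array, and it differed within the DCAC group. It was 2.85 to 3.99 on DCAC 1 and 2, 12.8 on DCAC 3 and 6.43 to 10.9 on the DCAA arrays. Among arrays of high ratio the comparison becomes DCAC 3 alone against the 3 DCAA arrays, and those values are given where they matter.

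Few single genes separated the compounds. Of 23175 probe sets 2 passed (limma, Benjamini-Hochberg adjusted p under 0.05), both lower with DCAC, which is 0.00863% of those tested; 0 passed as higher with DCAC (0.0%). At an unadjusted p under 0.05 there were 913 higher (3.94%) and 978 lower (4.22%) with DCAC. Taking 1 probe set per gene, the 3 DCAC arrays all lay above the 3 DCAA arrays for 865 genes (7.3%) and all below for 854 (7.21%). With a difference of at least 1.5-fold besides, 205 genes were higher (1.73%) and 332 lower (2.8%) with DCAC. These splits depend on how the arrays are scaled. DCAA 3 had a median signal of 214, against 157 to 186 on the other 5 arrays. Setting all 6 arrays to a common median moved the median difference of all probe sets from -0.01 to 0.17, turned the 205 and 332 genes into 617 and 144, and left 0 probe sets past the threshold; quantile normalization gave 271 and 237 genes and kept 2 probe sets.

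The gene with the firmest evidence was Dusp1, which encodes the nuclear phosphatase DUSP1 (MKP-1) that switches off p38, JNK and ERK and is itself an immediate early gene. Its signal was 1804, 1601 and 1360 on the DCAC arrays and 5147, 4904 and 3748 on the DCAA arrays. The groups were far apart, and the controls stood between them at 3064 and 2365. The DCAC mean was 1588 ± 223 and the DCAA mean 4600 ± 748 (SD, n = 3 each), a 2.89-fold difference (log2 difference -1.53, SE 0.17, 95% interval -1.91 to -1.15, limma adjusted p = 0.0239).

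The other probe set that passed is annotated to Snai2, which encodes the zinc finger repressor SLUG, known from epithelial to mesenchymal change. Its signal was 685, 489 and 457 with DCAC and 1966, 1895 and 1843 with DCAA. It was 3.55-fold lower with DCAC (log2 difference -1.83, SE 0.19, 95% interval -2.25 to -1.41, limma adjusted p = 0.0213). Controls 1 and 3 read 117 and 673, on the side of DCAC. A second Snai2 probe set did not separate the groups: it read 316 to 444 with DCAC and 394 to 553 with DCAA, a log2 difference of -0.40 (95% interval -0.92 to 0.13, limma adjusted p = 0.659). The large difference therefore belongs to 1 of 2 probe sets, whose design also allows binding to other transcripts. The calls themselves are narrow. Under 20 alternatives of processing or sample choice, Dusp1 stayed past the threshold in 11 and the Snai2 probe set in 10, and neither changed sign; their log2 differences ran from -1.74 to -1.34 and from -2.06 to -1.64. With DCAC 3 alone against the DCAA arrays they were -1.74 and -2.06, values that rest on 1 DCAC array.

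**Figure D1:**
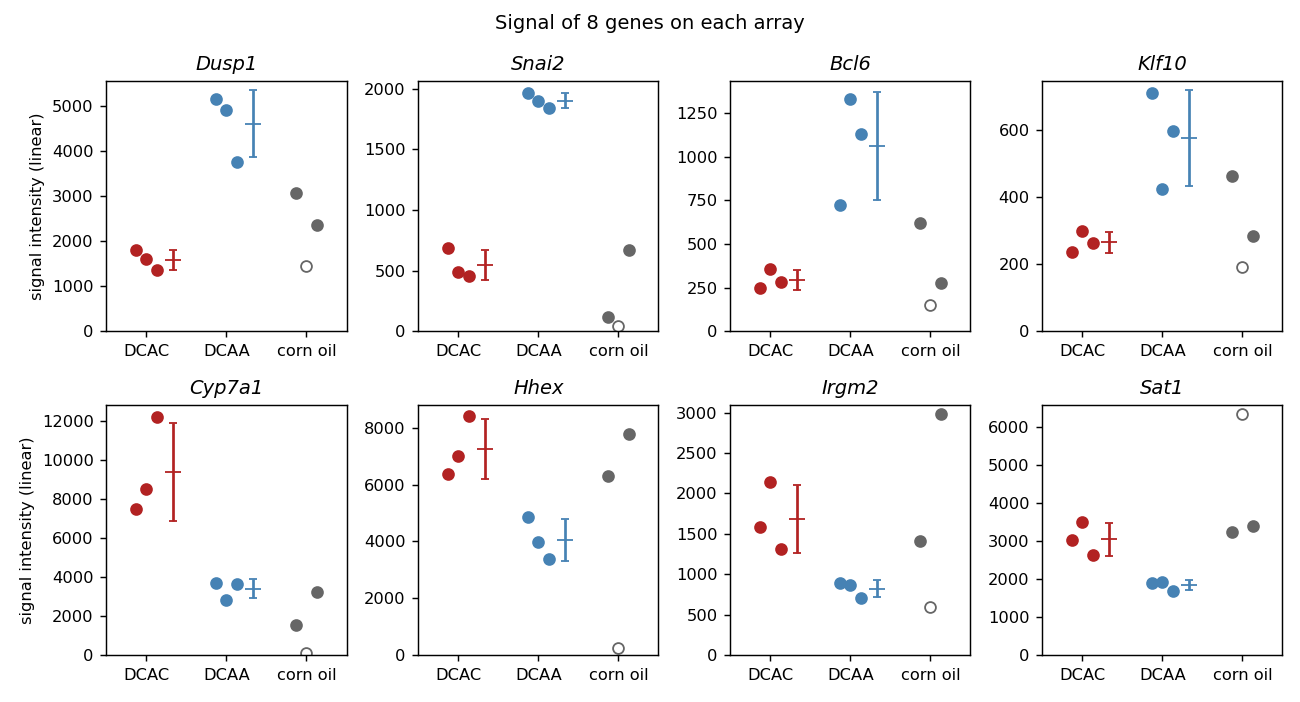
Signal intensity (linear axis from 0) of 8 genes on each array for DCAC (red), DCAA (blue) and corn oil controls (grey; the open circle is control 2), with the mean and SD of the 3 treated arrays beside each group. The DCAC and DCAA points do not overlap for any of the 8 genes: Dusp1, Snai2, Bcl6 and Klf10 are lower with DCAC, Cyp7a1, Hhex, Irgm2 and Sat1 higher.

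Dusp1 belongs to the immediate early genes, which encode short-lived transcription factors, RNA decay factors and kinase phosphatases. Of 35 on the list 27 were measured, and 24 of them had a negative difference. The median log2 difference was -0.35, against -0.0026 for all genes. In 5 of the 27 genes (18.5%) every DCAC array lay below every DCAA array, against 7.21% of all genes, and in 0 every DCAC array lay above. Under a common median the 5 became 4 (14.8%, against 2.66% of all genes), and under quantile normalization 6 (22.2%, against 6.87%). At an unadjusted p under 0.05 there were 6 lower and 0 higher, where all genes gave 3.92% lower and 4.08% higher. Dusp1 alone passed the adjusted test.

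Klf10, a repressor induced by TGF-beta, read 236, 298 and 262 with DCAC and 709, 425 and 596 with DCAA (log2 difference -1.10, 95% interval -1.66 to -0.53, limma adjusted p = 0.565). Dusp6, the ERK phosphatase that ERK itself induces, read 995, 997 and 1053 with DCAC and 1344, 2182 and 1784 with DCAA (-0.77, interval -1.20 to -0.35). Btg2, an antiproliferative gene that recruits RNA deadenylases, read 601, 733 and 700 with DCAC and 1042, 858 and 1051 with DCAA (-0.54, interval -0.94 to -0.13). In all 3 genes the DCAA arrays were higher. For Klf10 and Dusp6 the DCAC arrays were close together and the DCAA arrays more scattered, while for Btg2 the proportional spread was similar. The fifth gene without overlap was Fosl2, a partner of JUN in AP-1, at -0.44 (interval -0.92 to 0.04).

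The best known members of the class were not among them. Egr1, the zinc finger factor that is a standard readout of ERK signalling, read 1132 to 1602 with DCAC and 1215 to 1637 with DCAA, a log2 difference of -0.12 (95% interval -0.53 to 0.29). Fos had a difference of -0.16 with an interval from -1.45 to 1.14, and Jun one of 0.19 (interval -0.65 to 1.04). For these 3 genes the mice of a group overlapped with those of the other, and the intervals of Fos and Jun leave room for more than a 2-fold higher signal with DCAC. Gadd45g, a stress sensor, read 640 and 576 on DCAC 1 and 2 but 4484 on DCAC 3, and 1856 to 3978 with DCAA, so its difference of -1.20 (interval -2.55 to 0.16) rests on the first pair of mice.

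**Figure D2:**
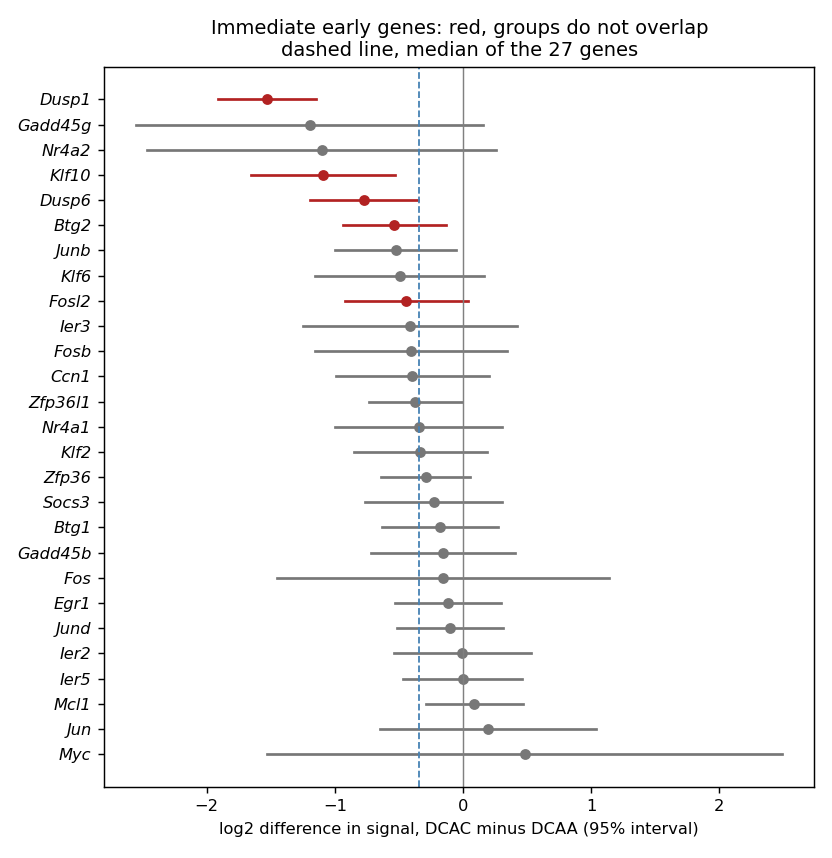
Log2 difference in signal, DCAC minus DCAA (x axis), with its 95% interval for the 27 measured immediate early genes, ordered by size; red marks the 5 genes whose groups do not overlap. Points for 24 genes lie left of 0, the dashed line is the median of -0.35, and the interval of Dusp1 lies farthest from 0.

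Among immediate early genes the cAMP response element, the palindrome TGACGTCA bound by CREB and ATF factors, is a classic promoter motif. The 250 bases before the start of the measured genes were therefore read from RefSeq (GRCm38.p6) where an entry was given. Klf10 had none. Both strands were searched. Of the 27 measured genes 23 were in the table, and 2 of them, Dusp1 and Btg2, held the full element; 1.55% of all 32851 promoters did. The Dusp1 region also held 1 E-box CACGTG, as did 6.02% of all promoters. Dusp6, also a gene whose groups did not overlap, held neither and is shown for contrast. Capitals mark the element and the E-box. The regions are chr17:26508473-26508722, minus strand, for Dusp1, chr1:134079156-134079405, minus strand, for Btg2 and chr10:99262981-99263230, plus strand, for Dusp6. A match describes these letters only.
Dusp1: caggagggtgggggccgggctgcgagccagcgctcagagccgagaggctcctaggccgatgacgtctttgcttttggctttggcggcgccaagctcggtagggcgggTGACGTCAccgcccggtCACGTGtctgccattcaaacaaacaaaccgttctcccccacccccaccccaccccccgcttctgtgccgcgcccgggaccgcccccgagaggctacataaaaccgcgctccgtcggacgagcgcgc
Btg2: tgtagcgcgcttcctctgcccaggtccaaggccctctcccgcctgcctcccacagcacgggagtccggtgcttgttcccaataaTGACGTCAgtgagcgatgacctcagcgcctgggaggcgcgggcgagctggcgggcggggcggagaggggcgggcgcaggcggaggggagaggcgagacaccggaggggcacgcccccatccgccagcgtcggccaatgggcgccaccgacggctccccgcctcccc
Dusp6: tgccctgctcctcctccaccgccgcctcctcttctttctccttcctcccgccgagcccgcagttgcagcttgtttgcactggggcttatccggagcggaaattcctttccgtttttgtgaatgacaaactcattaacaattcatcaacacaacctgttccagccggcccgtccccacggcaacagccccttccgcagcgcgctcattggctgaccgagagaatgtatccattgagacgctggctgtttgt
The element began 143 bases before the start of Dusp1 and 166 bases before that of Btg2.

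The MAP kinases that DUSP phosphatases act on showed no common direction. Of 31 measured genes of the pathway, which include Dusp1 and Dusp6, 4 were without overlap higher and 4 lower with DCAC (12.9% each, beside 7.3% and 7.21% of all genes). The kinases themselves mostly differed by little. Mapk14 (p38 alpha) had a log2 difference of 0.27 (95% interval -0.07 to 0.61), Mapk8 (JNK1) one of 0.15 (interval -0.33 to 0.64) and Map2k1 (MEK1) one of 0.27 (interval -0.06 to 0.60). Mapkapk3, a kinase downstream of p38, read 353 to 441 with DCAC and 210 to 323 with DCAA (0.73, interval 0.13 to 1.33), and Mapk11, the minor p38 beta, 78.6 to 120 and 200.1 to 225 (-1.17, interval -2.28 to -0.07). The DCAC signals of Mapk11 were below the array medians (157 to 174), so it entered the test only through the DCAA arrays. None of these 5 passed the test.

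Bile acid synthesis gave the largest difference in the other direction at high signal. Cyp7a1 encodes cholesterol 7-alpha-hydroxylase, which sets the pace of bile acid production. It read 7461, 8507 and 12225 with DCAC and 3674, 2821 and 3657 with DCAA. Every DCAC mouse lay far above every DCAA mouse. Controls 1 and 3 read 1560 and 3225, on the side of DCAA. The log2 difference was 1.45 (SE 0.19, 95% interval 1.03 to 1.88), a 2.74-fold higher mean, and it did not pass (limma adjusted p = 0.0778); it passed in 6 of the 20 alternatives. Against DCAC 3 alone it was 1.86. A second, dimmer Cyp7a1 probe set read 1143 to 1734 with DCAC and 724 to 918 with DCAA (0.82, interval 0.38 to 1.26), again without overlap.

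The other enzymes of the route differed far less. Cyp8b1, which sets the share of cholic acid, read 14548 to 16425 with DCAC and 12518 to 14491 with DCAA (log2 difference 0.18, 95% interval -0.11 to 0.47), and Cyp27a1, the first enzyme of the alternative route, had a difference of 0.17 (interval -0.12 to 0.46). For both, the groups did not overlap but the interval included 0. Cyp7b1 was at -0.06 (interval -0.55 to 0.42). Of the receptors that repress Cyp7a1, Nr1h4 (FXR) read 3604 to 4470 with DCAC and 3261 to 3531 with DCAA (0.27, interval -0.04 to 0.59). Its target Nr0b2 (SHP) was widely scattered, at 2208, 785 and 916 with DCAC and 850, 3320 and 2911 with DCAA (-0.79, interval -1.85 to 0.27). Slco1b2, the hepatic uptake carrier for bilirubin and bile acids, read 17354 to 22130 with DCAC and 13978 to 16562 with DCAA (0.36, interval 0.04 to 0.68). Another Slco1b2 probe set was at 1.35 (interval 1.02 to 1.69) in the alternative with a block for replicate number. It did not pass in the main comparison. Slc51a, a subunit of the basolateral exporter OST, was low throughout and lower with DCAC (193 to 221 against 264 to 343; -0.58, interval -1.22 to 0.06). Of 27 measured genes of the list 6 were higher without overlap (22.2%, against 7.3% of all genes) and 1 lower (3.7%, against 7.21%). Quantile normalization gave 4 higher (14.8%, against 7.34% of all genes) and a common median 6 (22.2%, against 14.9%). No member passed the test.

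Bcl6 was the next of the lower genes. It encodes a transcriptional repressor that in liver restrains PPARA targets and takes part in sex-biased growth hormone signalling. Its signal was 248, 357 and 280 with DCAC and 724, 1333 and 1131 with DCAA. The groups did not overlap, and controls 1 and 3 read 623 and 275. The log2 difference was -1.82 (SE 0.26, 95% interval -2.39 to -1.25, limma adjusted p = 0.108), and 5 of the 20 alternatives called it. A dimmer Bcl6 probe set read 106 to 212 with DCAC and 331 to 396 with DCAA (-1.40, interval -2.18 to -0.61).

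Genes of growth hormone control, on whose list Bcl6 stands, went in both directions. Cish, a feedback inhibitor induced by growth hormone, read 1589, 2309 and 3426 with DCAC and 2070, 1014 and 1265 with DCAA (log2 difference 0.75, 95% interval 0.09 to 1.40). Elovl3, a fatty acid elongase under strong sex and circadian control, read 211, 261 and 490 with DCAC and 525, 486 and 556 with DCAA (-0.80, interval -1.47 to -0.13). In both genes the groups overlapped. Over 23 measured genes 0 were higher and 2 lower without overlap (8.7%, near the 7.21% of all genes), and the median difference relative to all genes was 0.07.

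Rgs16, a regulator of G protein signalling that in liver responds to fasting, had one of the largest differences. It read 228, 301 and 629 with DCAC and 2748, 955 and 1685 with DCAA (log2 difference -2.23, 95% interval -3.11 to -1.34, limma adjusted p = 0.366). Control 1, at 287, lay within the DCAC range and control 3, at 25.5, below it. Another probe set gave -1.76, and the dimmest, at 133 to 475 on the 6 arrays, -0.12. With DCAC 3 alone the difference of the first was -1.38.

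By smallest p among genes without overlap and with at least 1.5-fold, 15 genes were taken in each direction. Of the lower ones, Snai2, Dusp1, Bcl6 and Rgs16 are described above, and the other 11 served varied functions. Hspa1b, an inducible HSP70 chaperone, read 783 to 1297 with DCAC and 1871 to 4487 with DCAA (log2 difference -1.37, 95% interval -2.02 to -0.72); its near-identical paralogue may share the signal. Other Hspa1b probe sets gave smaller differences. One gave -0.94, with DCAA 2 at 2791 and DCAA 1 and 3 at 810 and 792. Another gave -0.84, and there the groups overlapped. Prkag1, the gamma subunit of the energy sensor AMPK, read 695, 723 and 719 with DCAC and 1557, 1298 and 1326 with DCAA (-0.96, interval -1.33 to -0.60), and its second probe set gave -0.54. Ass1, argininosuccinate synthase of the urea cycle, read 978 to 1863 with DCAC and 2265 to 3792 with DCAA on the probe set annotated to it alone (-1.11, interval -1.66 to -0.57). Slco4a1, a thyroid hormone carrier, read 15.8 to 64.3 with DCAC and 231 to 510.0 with DCAA (-2.46, interval -3.70 to -1.22). This was the largest difference of the 30 genes, at low signal. Signals under an array's 25th percentile (48.8 to 53.6 on the DCAC arrays) were raised to it, so the size depends on that floor. The difference ran from -3.39 to -2.27 in the 16 alternatives that tested it. Its DCAC signals were below the array medians (157 to 174), so it entered the test only through the DCAA arrays. Scarf1, a scavenger receptor, Idua, the lysosomal iduronidase, Plekhf1, Efs, Ccdc141, Fam216b and Apex1 had differences between -2.32 and -0.73. The Apex1 value, for a DNA repair endonuclease, came from 1 of 3 probe sets, and the others gave -0.03 and -0.21. A second Idua probe set gave -0.48 (interval -1.05 to 0.09), with groups that overlapped. Other Ccdc141 probe sets gave -0.84, without overlap, and -0.24, with overlap. None of these 11 genes passed (limma adjusted p from 0.313 to 0.565).

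The genes higher with DCAC included a liver transcription factor and an interferon-induced GTPase. Hhex, a homeobox factor of liver development, read 6355, 7013 and 8403 with DCAC and 4842, 3975 and 3363 with DCAA (log2 difference 0.84, 95% interval 0.47 to 1.22); controls 1 and 3 read 6317 and 7784, with the DCAC mice. Irgm2, an interferon-induced GTPase, read 1586, 2136 and 1312 with DCAC and 890, 867 and 705 with DCAA (1.01, interval 0.56 to 1.46). Sat1, the rate-limiting enzyme of polyamine breakdown, read 3033, 3495 and 2630 with DCAC and 1905, 1916 and 1695 with DCAA (0.72, interval 0.38 to 1.07), and controls 1 and 3 read 3246 and 3401. In all 3 genes the DCAA mice stood below both the DCAC mice and these controls.

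Among those at low signal with DCAA, Mcrs1, a nuclear scaffold protein, read 309 to 368 with DCAC and 42.2 to 92.1 with DCAA (2.21, interval 1.21 to 3.22). Its DCAA signals were below the array medians (172 to 214), so it entered the test only through the DCAC arrays. The lowest DCAA signal lay under the floor (56.5 to 67.4 on these arrays), so the size depends on the floor. It ran from 2.06 to 2.61 in the 16 alternatives that tested Mcrs1. Akr1e1, an aldo-keto reductase, read 471 to 574 and 63.8 to 284 (1.92, interval 0.94 to 2.90). Wdr36, a factor of ribosomal RNA processing, read 416 to 674 and 94.8 to 302 (1.70, interval 0.81 to 2.60). The remaining 8, Lrrc24, Habp4, Cd320 (the receptor for transcobalamin), Bag5 (an HSP70 co-chaperone), Zbtb41, Ndst2 (a heparan sulfate enzyme), Grina and Papola (the poly(A) polymerase), had differences between 0.62 and 1.42. Cd320, like Mcrs1, was tested in only 16 alternatives, from 1.10 to 1.43, as the filter on low signal left it out of the others. Second probe sets were not of one mind: that of Grina gave -0.20 and those of Papola lay between -0.20 and 0.23. That of Wdr36 gave 0.38, that of Zbtb41 0.24, and those of Habp4 0.74 and -0.30. None of these 14 genes passed the test (limma adjusted p from 0.476 to 0.565).

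**Figure D3:**
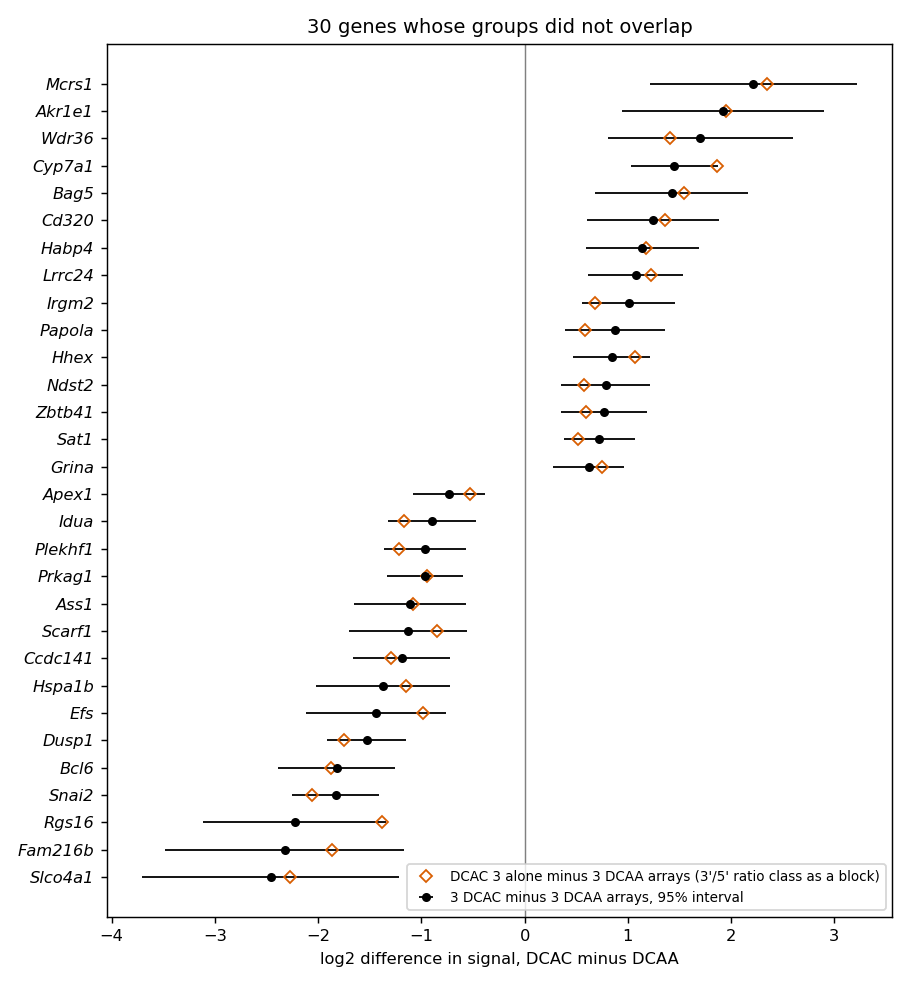
Log2 difference in signal, DCAC minus DCAA (x axis), for 30 genes, 15 in each direction, chosen by the smallest p among genes without overlap and with at least a 1.5-fold difference; black points with 95% intervals use 3 arrays a group, open diamonds use DCAC 3 alone. Genes were chosen for groups that do not overlap, which puts each diamond on the same side of 0 as its point, so the diamonds describe only the level of DCAC 3.

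Glucocorticoids induce Dusp1 among other genes. Of 18 measured glucocorticoid-induced genes, Dusp1 included, 3 were lower without overlap (16.7%, against 7.21% of all genes) and 1 was higher (5.56%, against 7.3%); under a common median 2 were lower (11.1%, against 2.66%). Ddit4, an inhibitor of mTORC1, read 750 to 873 with DCAC and 1008 to 1585 with DCAA (log2 difference -0.65, 95% interval -1.09 to -0.22), and Slc10a6, a sulfated steroid carrier, 300 to 393 and 465 to 671 (-0.64, interval -1.16 to -0.12). Igfbp1, an insulin-repressed binding protein of insulin-like growth factors, overlapped at 3259 to 6737 and 4260 to 13591 (-1.02, interval -1.86 to -0.17). Of 24 measured genes of gluconeogenesis and FOXO control, 2 were lower without overlap (8.33%, near the 7.21% of all genes) and 0 higher. They were Trib3, a pseudokinase that restrains AKT, at 201 to 461 against 585 to 733 (-1.19, interval -1.83 to -0.54), and Ppargc1a, the coactivator of gluconeogenesis and mitochondrial genes, at 491 to 581 against 700.0 to 887 (-0.56, interval -0.98 to -0.14). Apart from Dusp1 none of these passed the test.

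Genes of PPARA, the nuclear receptor of fasting fat oxidation, did not move as a class. Ppara itself read 4895, 5115 and 9414 with DCAC and 10835, 8778 and 9339 with DCAA, so that DCAC 3 lay with the DCAA mice (log2 difference -0.64, 95% interval -1.13 to -0.14; -0.03 with DCAC 3 alone). Angptl4, a PPARA target that inhibits lipoprotein lipase, read 1304, 2299 and 1649 with DCAC and 2779, 3209 and 3015 with DCAA (-0.81, interval -1.25 to -0.38), with controls 1 and 3 at 1045 and 1089. Cyp4a14, a fatty acid hydroxylase that is a sensitive PPARA target, was higher on DCAC 1 and 3 only, at 1179 and 1381 beside 355 on DCAC 2 and 406 to 417 with DCAA (1.02, interval 0.12 to 1.92). Of 32 measured genes 3 were higher without overlap (9.38%, near the 7.3% of all genes) and 2 lower (6.25%, near 7.21%), and the list's median was -0.01 relative to that of all genes.

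Clock genes were widely scattered among mice of 1 group. The molecular clock runs as a loop in which BMAL1 (Arntl) and CLOCK drive Per, Cry and Rev-erb genes, which repress them in turn, and the output factor Dbp swings widest in liver. Dbp read 1090, 232 and 3404 with DCAC and 2245, 565 and 783 with DCAA, and its log2 difference of -0.07 had an interval from -1.76 to 1.62. On DCAC 3 and DCAA 1 Dbp, Per3, Tef and Hlf were above, and Arntl and Nfil3 below, their means over the 6 arrays; on DCAC 2 the order was turned. Rora, an activator of Arntl, was the member with the smallest p, at 1848 to 2429 with DCAC and 3037 to 3346 with DCAA (-0.61, interval -0.95 to -0.27). Nr1d1 (Rev-erb alpha) overlapped, at 454 to 1009 and 979 to 1552 (-0.73, interval -1.36 to -0.09). Per2 read 255 to 344 and 346 to 431 (-0.37, interval -0.91 to 0.17). Of 17 measured members 2 were lower without overlap (11.8%, against 7.21% of all genes) and 0 higher; under a common median 0 were lower, against 2.66% of all genes. The list's median of -0.25 became 0.34 with DCAC 3 alone. The labels used here give no hour of death, and the part of clock phase in the other differences, those of Cyp7a1 and Bcl6 included, was not tested.

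**Figure D4:**
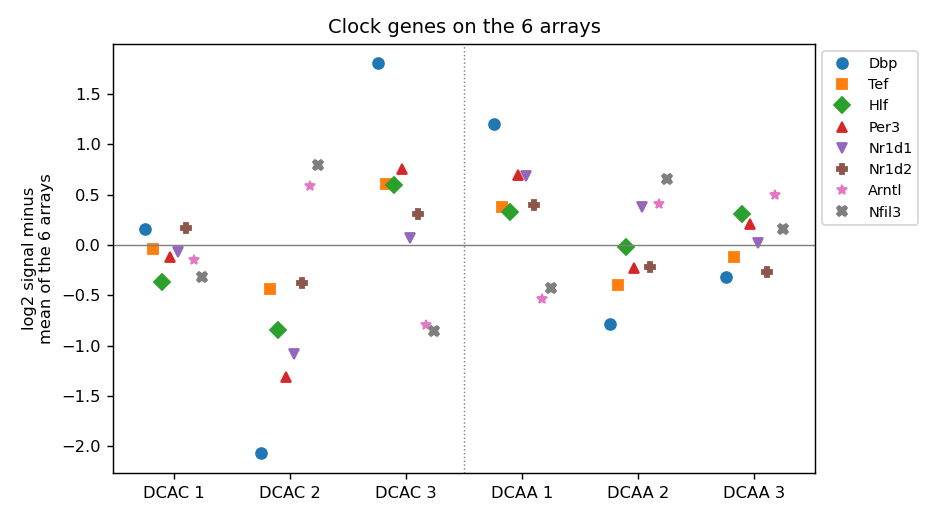
Log2 signal of 8 clock genes on the 6 treated arrays, each relative to its own mean over the 6 (y axis); columns are arrays and the dotted line separates DCAC from DCAA. DCAC 3 and DCAA 1 have Dbp high with Arntl and Nfil3 low, DCAC 2 the opposite, and the 3 DCAC arrays span the whole range of Dbp.

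For the acute phase genes named here and for the bright metallothionein probe sets, the interval of the difference included 0. Saa1, a serum amyloid A of the acute phase, read 46752, 56348 and 65821 with DCAC and 19481, 59707 and 68791 with DCAA, a log2 difference of 0.37 with a 95% interval from -0.45 to 1.19. Saa2 was at 0.61 (interval -0.56 to 1.77), Lcn2, the iron-binding lipocalin, at 0.23 (interval -0.60 to 1.06) and Orm2, an orosomucoid, at 0.48 (interval -0.32 to 1.29). In all 4 genes DCAA 1 was the lowest of the 6 arrays, and without it the differences were -0.20, -0.25, -0.37 and -0.04. All 4 intervals leave room for more than a 2-fold higher signal with DCAC, so these values do not show that the compounds act alike. Mt2, a metallothionein that binds zinc and copper, was at 0.03 (interval -0.47 to 0.54) and the bright Mt1 probe set, at 32318 to 53875 on all 6 arrays, at -0.14 (interval -0.56 to 0.29). A dimmer Mt1 probe set read 1243, 652 and 758 with DCAC and 1857, 2240 and 2635 with DCAA (-1.39, interval -1.91 to -0.86, limma adjusted p = 0.313), which the bright one did not show.

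Other members of these lists gave intervals that excluded 0 without passing the adjusted threshold, as did Nfkbia and Cxcl1 of the NF-kB and chemokine list. Of 23 measured genes of that list 2 were lower without overlap (8.7%, near the 7.21% of all genes) and 0 higher. Il6ra, the IL-6 receptor, read 547 to 866 with DCAC and 792 to 1142 with DCAA (log2 difference -0.52, 95% interval -1.01 to -0.03), and Nfkbia, the inhibitor of NF-kB that NF-kB itself induces, 6055 to 10226 and 10149 to 13877 (-0.65, interval -1.08 to -0.22). Cxcl1, a neutrophil chemokine, read 1898 to 2262 and 2638 to 2769 (-0.35, interval -0.67 to -0.03). Among zinc genes Mtf1, the factor that induces metallothioneins, was lower with DCAC (475 to 758 against 873 to 998; -0.66, interval -1.12 to -0.20), and the zinc exporter Slc30a1 was higher (998 to 2266 against 823 to 989; 0.76, interval 0.19 to 1.33), as was the zinc transporter Slc39a7 (0.60, interval 0.22 to 0.98). Of 41 measured acute phase genes 1 was higher and 1 lower without overlap (2.44% each), beside 7.3% and 7.21% of all genes.

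Genes that handle dichloroacetate or are its targets had intervals that included 0. Gstz1 read 16147, 12837 and 12944 with DCAC and 13421, 13528 and 7991 with DCAA, with means of 13976 ± 1881 and 11646 ± 3166 (SD, n = 3 each) and a log2 difference of 0.30 (95% interval -0.15 to 0.74). Pdk1, Pdk2 and Pdk4, kinases that inactivate pyruvate dehydrogenase, had differences of 0.05 (interval -0.38 to 0.48), -0.26 (interval -0.73 to 0.20) and 0.03 (interval -0.68 to 0.75). Of 16 measured genes of this list 0 were without overlap in either direction, beside 7.3% higher and 7.21% lower of all genes. Quantile normalization and a common median each gave 1 higher (6.25%), against 7.34% and 14.9% of all genes. Cyp2e1, the cytochrome that oxidises trichloroethene, read 39127 to 49842 with DCAC and 50308 to 52719 with DCAA, near the top of the signal range (-0.18, interval -0.49 to 0.13), and its sign turned under a common median and under quantile normalization. Among carboxylesterases, hydrolases of acyl compounds, Ces1d read 7803 to 11850 and 5065 to 7579 (0.60, interval 0.18 to 1.02). Of 18 measured hydrolases 1, Ces1d, was higher without overlap (5.56%, against 7.3% of all genes) and 3 were lower (16.7%, against 7.21%). Under a common median 0 were lower, against 2.66%. Gsta3, a glutathione transferase of the alpha class, overlapped at 11096 to 17877 and 6628 to 12146 (0.66, interval 0.15 to 1.17), with controls 1 and 3 at 16427 and 18386. Of 35 measured genes of its list 2 were higher without overlap (5.71%, against 7.3%) and 0 lower (against 7.21%). Neither Ces1d nor Gsta3 passed the test.

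The proteasome degrades ubiquitinated proteins. Of its 37 measured subunits and activators 29 had a positive difference and none passed the test. Without overlap 7 were higher (18.9%, against 7.3% of all genes) and 0 lower (against 7.21%), and the median log2 difference was 0.17; under a common median, which raises all genes alike, 16 were higher without overlap (43.2%, against 14.9% of all genes). The sizes were small. The activator Psme4 read 3352 to 4112 with DCAC and 2264 to 3032 with DCAA (0.45, 95% interval 0.10 to 0.81), and Psmd7, a lid subunit, 1413 to 1538 and 969 to 1239 (0.41, interval 0.05 to 0.78). DCAA 3 was the lowest array for Psmd8 (2103, beside 2745 and 3830 on the other DCAA arrays and 3797 to 4421 with DCAC).

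Of 30 measured interferon-responsive genes 4 were higher without overlap, Irgm2 among them (13.3%, against 7.3% of all genes), and 1 was lower (3.33%, against 7.21%). Quantile normalization gave 3 higher (10%, against 7.34% of all genes) and 0 lower. A common median gave 5 higher (16.7%, near the 14.9% of all genes) and 0 lower. Tap1, the peptide transporter of MHC class I, read 464, 514 and 475 with DCAC and 273, 313 and 228 with DCAA (log2 difference 0.85, 95% interval 0.33 to 1.37). Ifi27 read 2182 to 2386 and 1410 to 1771 (0.51, interval 0.17 to 0.84), and Ifit3, which binds foreign RNA, 228 to 352 against 78.2, 248 and 74.2 (1.24, interval 0.07 to 2.41). The list's median difference relative to all genes was -0.06, on the opposite side of 0.

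Lists of lipid synthesis had members on both sides. Of 27 measured fatty acid synthesis genes 2 were higher (7.41%) and 3 lower (11.1%) without overlap, and of 20 cholesterol genes 2 and 3 (10% and 15%), beside 7.3% higher and 7.21% lower of all genes. Under a common median the lower counts were 0 and 2 (0.0% and 10%, against 2.66% of all genes). None passed the test. Hmgcs1, an early enzyme of cholesterol synthesis, read 34974 to 36710 with DCAC and 43367 to 54073 with DCAA (log2 difference -0.49, 95% interval -0.80 to -0.18), and Hsd17b7, of the same route, 2521 to 3318 and 3728 to 4174 (-0.40, interval -0.73 to -0.07). Elovl5, an elongase of polyunsaturated fatty acids, read 21344 to 22429 and 27105 to 27993 (-0.32, interval -0.60 to -0.05). Lpin2, a phosphatidate phosphatase of triglyceride synthesis, read 2776 to 3687 and 4609 to 5491 (-0.57, interval -0.92 to -0.23). Srebf1, the master regulator of fatty acid synthesis, read 5900.0 to 8081 and 5602 to 6786, a difference of 0.19 (interval -0.15 to 0.53). Apom, an apolipoprotein of high density lipoprotein, was higher with DCAC at 7000.0 to 9551 against 2762 to 6820 (0.92, interval 0.33 to 1.52).

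Genes of drug metabolism and mitochondria gave few differences without overlap. Cyp3a16, a cytochrome of young mouse liver whose signal may be shared with related Cyp3a genes, read 697 to 1401 with DCAC and 432 to 706 with DCAA (log2 difference 1.08, 95% interval 0.44 to 1.71). Of 29 measured cytochromes of families 1 to 3, 1 was higher (3.45%) and 2 lower (6.9%) without overlap, fewer in share than the 7.3% and 7.21% of all genes. Of 63 oxidative phosphorylation genes 4 were higher (6.35%) and 1 lower (1.59%), and the list's median lay 0.0038 from that of all genes. Srm, spermidine synthase of the polyamine route, was at 0.28 (interval -0.11 to 0.68).

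Markers of cell types other than hepatocytes moved with the groups in part. In tissue, fewer cells of a type and less RNA per cell cannot be told apart. Marker sums are of signals as deposited and were taken under no other scaling. The summed signal of 18 measured (of 19) stellate cell and fibroblast markers was 16679 to 17548 with DCAC and 17785 to 27907 with DCAA. The gap between the groups was narrow, while the array medians ran from 157 on DCAC 3 to 214 on DCAA 3, so it depends on the scaling. Of the 18 markers 3 were lower without overlap with DCAC (16.7%, against 7.21% of all genes), 1 under a common median (5.56%, against 2.66%). They were Rgs5, a pericyte gene, at 1189 to 1631 against 1913 to 2398 (log2 difference -0.63, 95% interval -1.01 to -0.25), Colec11, a collectin of stellate cells, at -0.39 (interval -0.72 to -0.06) and Dcn, decorin, at -0.36 (interval -0.70 to -0.03). The 7 measured B cell and plasma cell markers (of 20) summed to 2247 to 2466 with DCAC and 2664 to 3913 with DCAA. Of these, Ighm, the heavy chain of IgM, read 552 to 1009 with DCAC and 1129 to 1663 with DCAA (-0.91, interval -1.44 to -0.39). Of the 7 markers 4 had a negative and 3 a positive difference, the highest at 0.75. Without overlap 3 were lower (42.9%, against 7.21% of all genes) and 1 was higher (14.3%, against 7.3%). Under a common median 0 were lower (against 2.66%) and 1 was higher (14.3%, near the 14.9% of all genes). Snai2 is a gene of mesenchymal cells, and the part of these markers in its difference was not tested.

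The markers of Kupffer cells overlapped in sum, at 25663 to 33466 with DCAC and 29509 to 31415 with DCAA for 23 of 24 genes, although Adgre1 (F4/80) read 489 to 767 and 806 to 1077 (-0.63, interval -1.10 to -0.15) and Fcer1g was at -0.69 (interval -1.25 to -0.14). Ehd3, of sinusoidal endothelium, read 1321 to 1434 and 1782 to 2437 (-0.64, SE 0.17), while the 17 measured endothelial markers (of 19) overlapped in sum. Hepatocyte markers summed to 538369 to 688616 with DCAC and 671610 to 742953 with DCAA. Of these 17 genes (of 20 on the list) 16 had a negative difference, with a median of -0.18, which became 0.01 under a common median.

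**Figure D5:**
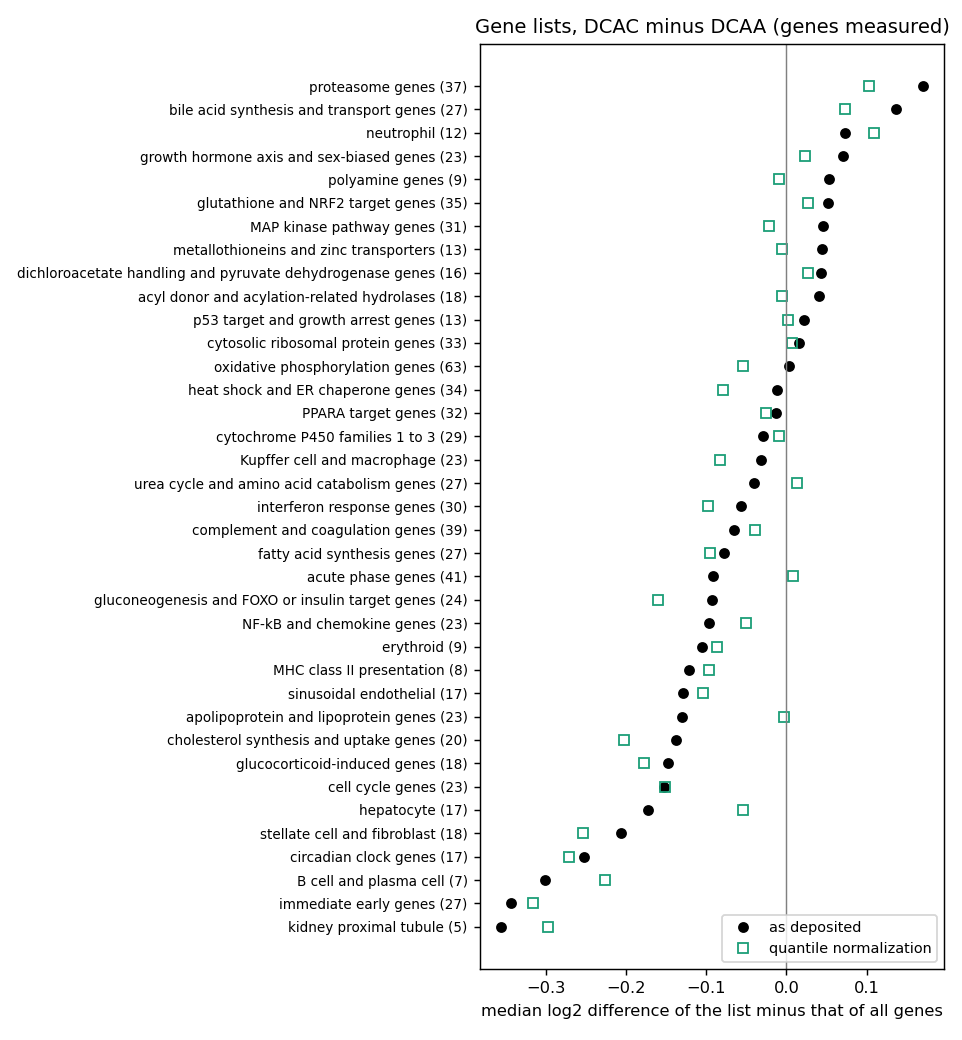
Median log2 difference, DCAC minus DCAA, of each list with at least 5 measured genes, minus that of all genes (x axis), as deposited (black circles) and after quantile normalization (open squares); the number of measured genes stands in parentheses. Immediate early genes lie at -0.34 and -0.32 and proteasome genes at 0.17 and 0.10; a common median shifts all genes alike and leaves these positions as they are.

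The DCAC arrays correlated more with each other than the DCAA arrays did, and DCAA 3 stood apart. Spearman correlations over the tested probe sets were 0.907 to 0.938 (median 0.918) within DCAC and 0.870 to 0.913 (median 0.884) within DCAA. Between the groups they were 0.855 to 0.919 (median 0.911). DCAA 1 and DCAA 2 correlated at 0.913, within the DCAC range. DCAA 3 correlated at 0.870 and 0.884 with them and at 0.855 to 0.863 with the DCAC arrays. The median SD of a probe set was 0.25 with DCAC and 0.29 with DCAA on the log2 scale. Controls 1 and 3 lay on average nearer to the DCAC mean than to the DCAA mean for 60.5% of all genes. The share was 72.2% of the 205 genes higher with DCAC (148) and 72.9% of the 332 lower (242). DCAC 1 and 2 share a low 3'/5' ratio with the controls, and its part in this was not tested. With 3 mice against 3 an exact two-sided permutation test of a single gene cannot give a p below 0.1, and the limma tests above borrow the spread of all probe sets.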

How the data were processed

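Liver RNA of 9 mice was measured on Affymetrix expression arrays, each mouse on its own array. The authors deposited a linear signal intensity for every probe set, computed with GCOS per the submitters' processing notes, version not given in the sources used here, and each array had been scaled to about the same trimmed mean, as the deposited values show. This global scaling assumes equal total signal per array. Arrays have no read depth, and their number limits the precision.

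The comparison used the 3 DCAC and 3 DCAA arrays, grouped by their labels. The 64 control probe sets were left out. Before log2, each array's 25th percentile served as a floor for lower signals. Tests covered probe sets that exceeded their array's median on 3 or more of 6 arrays, and were made with limma 3.58.1 in R 4.3.3 (lmFit, eBayes with intensity trend; two-sided, Benjamini-Hochberg over all tested). The script was tested on simulated data. 1 pair of compounds was compared. Where a gene has several probe sets, the brightest tested one stands for it. The array annotation gave 1 symbol to 34945 probe sets, several to 932 and none to 9160; of the first, 34754 matched the RefSeq table and 0 symbols changed. Only probe sets with 1 symbol were named.

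Genes named are those past the threshold, 15 per direction without overlap and with at least 1.5-fold, the members of a list with the smallest p (up to 4), and a set of genes named whatever their values. Other members of the immediate early, MAP kinase, bile acid and clock lists, and genes shown for their spread, were named after their values were seen. Genes, 28 pathway lists and 14 marker lists were chosen with earlier results of these data known. Lists are described by counts and medians, without a test.

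The 20 alternatives concern scaling (common median, quantile normalization), low values (an offset of 32 or nothing in place of the floor), the filter (none, or all 6 arrays), probe sets (1 for each gene), the fit (robust, no trend, array weights, 8 or 9 arrays in the model, a block for replicate number or for the class of 3'/5' ratio) and the omission of any 1 array. Of 36 pairs of arrays 0 were identical.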

Additional observations from a re-analysis of the deposited data

Results flagged for a closer look

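The 3'/5' ratio of the pyruvate carboxylase control probe sets was above the range of the controls (3.32 to 3.93) on 5 arrays. The main comparison does not use this ratio, and its class enters only the alternative that blocks on it. It was 12.8 on DCAC 3, 6.43 on DCAA 1, 8.38 on DCAA 2 and 10.9 on DCAA 3. DCAC 2, at 3.99, was just above the highest control, and DCAC 1 read 2.85. The actin ratio ran the same way, at 1.27 to 1.51 on the low arrays and 1.76 to 2.59 on the high ones. The part of this ratio in the differences between the compounds was not tested.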

How the results depend on the processing

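Beside the 2 probe sets called, alternatives gave 0 calls under a common median, with 9 arrays and when blocking on the class of 3'/5' ratio, and 1 with 8 arrays (Dusp1). There were 4 calls with a filter on all 6 arrays, with 1 probe set per gene and with array weights, where Cyp7a1, as 1 call higher with DCAC, and Bcl6 joined Dusp1 and Snai2. Quantile normalization, no floor, an offset of 32 and no filter gave 2, the same genes, and robust eBayes 3 with Cyp7a1. Without the trend 2 other probe sets, for Rnf41 and 9030607J07Rik, were called instead. The cause of these changes was not tested. Leaving out 1 array gave 0 to 5 calls, of which 0 to 2 were higher with DCAC: 0 calls without DCAC 2, DCAC 3, DCAA 2 or DCAA 3, 5 without DCAC 1, and 2 without DCAA 1, for Etnppl and Bcl6. Same-numbered arrays share only a number, as their deviations correlated at -0.0436, 0.0361 and -0.0103; the replicate block gave 5 calls, 2 of them higher with DCAC. The 913 higher and 978 lower probe sets at an unadjusted p under 0.05 became 1966 and 348 under a common median and 1400 and 1479 with array weights; without a filter the lower ones were 3290, and within the high 3'/5' ratio class the higher ones were 518. The higher ones were 417 without DCAC 2 and 516 without DCAC 1, and the lower ones 506 without DCAA 3.

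Sign changes touched 9 of the genes named whatever their values, none of them near the threshold. Cyp2e1 was at 0.023 after quantile normalization and 0.0059 under a common median. Mt1 was at 0.049 under a common median and 0.068 within the high 3'/5' ratio class, where Mt2 was at -0.028 and Pdk4 at -0.58. Lcn2 was at -0.012 with array weights. Leaving out 1 array gave -0.20 to 0.71 for Saa1, -0.25 to 1.03 for Saa2, -0.37 to 0.58 for Lcn2, -0.036 to 0.96 for Orm2, -0.31 to 0.029 for Mt1, -0.23 to 0.20 for Mt2, -0.078 to 0.26 for Pdk1 and -0.25 to 0.34 for Pdk4. The number of arrays limits the precision, and probe sets below the array median were not tested.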

Other observations

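Several liver genes varied more among mice of 1 group than between the compounds, and were noticed after their values were seen. Alas1, the first enzyme of heme synthesis, read 3822, 8662 and 19626 with DCAC and 6975, 2219 and 1681 with DCAA. Socs2, a feedback inhibitor of growth hormone signalling, read 887, 5354 and 3635 with DCAC and 2127, 1072 and 1722 with DCAA. Csad, which makes the taurine precursor hypotaurine, read 4177 and 4220 on DCAC 1 and 2 and 887 on DCAC 3, against 1912 to 3619 with DCAA. Slco1a1, a male-biased organic anion carrier, read 830, 1988 and 220 with DCAC and 975, 2279 and 2148 with DCAA. Col3a1, a fibrillar collagen, read 3739 on DCAA 3 and 665 to 1501 on the other 5 treated arrays. Cyp26a1, which degrades retinoic acid, read 502 on DCAC 3 and 303 on DCAA 1, and 1243 to 1843 on the other 4.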
